A study of Mus musculus with 6 samples.

Results

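The major histocompatibility complex (MHC) of the mouse is the H2 region, and its genes were followed in liver RNA from mice that lacked Vps15. Members were all genes whose symbol starts with H2-, together with B2m, Cd74 and Ciita, which makes 48 of the 56305 genes in the table. Of these, 32 encode or resemble class 1 heavy chains and 12 encode or resemble class 2 chains. B2m is the class 1 light chain, Cd74 the invariant chain and Ciita the class 2 regulator, while H2-Ke6 carries the prefix only. Messenger RNA was sequenced from the livers of 3 WT and 3 Vps15LKO mice, each liver giving 1 library. Vps15LKO mice were AlbCre+;Vps15 f/f, in which Cre recombinase from the albumin promoter, active in hepatocytes and not in blood cells, deletes floxed Vps15. All mice were males of 5 weeks, fed ad libitum and collected at ZT6, in the light phase, and n below counts mice. The floxed line came from the Jackson Laboratory and the study planned its animal numbers on B6/C57 mice, but the alleles carried by these WT controls and the strain background and H2 haplotype of each mouse are not given in the sources used here. The question addressed was whether class 1 and class 2 genes differed between the genotypes, and whether the classes did so alike.

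Class 1 molecules stand on nearly all nucleated cells and show CD8 T cells peptides cut in the cytosol by the proteasome. Each consists of a heavy chain, such as those of H2-K1 and H2-D1, bound to beta-2-microglobulin, and related genes of the Q, T and M groups encode less variable or secreted forms. Class 2 molecules are made mainly by dendritic cells, B cells and macrophages, and present peptides from the endosome to CD4 T cells. Their alpha and beta chains assemble on the invariant chain, H2-DM exchanges its remnant for peptide, and H2-O holds H2-DM back. Hepatocytes, which make up most of the liver, ordinarily carry class 1 and little class 2. Class 2 genes are switched on by Ciita through the X and Y boxes of their promoters, while class 1 promoters also hold a kappa-B site and an interferon response element.

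RefSeq promoter windows of GRCm38.p6, from 250 bases before to 50 after each start, were held for 33 of the 48 members, 23 of class 1 and 8 of class 2. H2-Ab1, Cd74 and Ciita are named only. Motifs were sought on both strands. The Y box core GATTGG lay in all 8 class 2 windows and in 17 of the 23 class 1 windows, against 18.2% of the 27025 genes with a window. The full Y box CTGATTGG, which contains the core, lay in 4 class 2 and 14 class 1 windows, against 4.7% of genes. The core read in the direction of the gene in 8 class 2 genes (H2-Eb1 holds a second copy the other way), and against it in all 17 class 1 genes (H2-T22 holds 1 each way). The class 2 stretches below are shown because 6 of the 8 windows pair the core with the start of an X box, GNAAC, on the same strand and 29 to 32 bases upstream. That spacing was chosen after the sequences had been read, and such a pair was found in 73 of the 27025 genes (0.27%) and in 0 of the 23 class 1 windows. Capitals mark GNAAC and GATTGG, each stretch runs 5′ to 3′ on the strand of its gene, and all lie upstream of the RefSeq start. The GENCODE M21 annotation starts H2-DMb1 at 34153072, before its stretch, and H2-Oa at 34092340, inside its stretch.
H2-Aa (chr17:34287861-34287912, minus strand): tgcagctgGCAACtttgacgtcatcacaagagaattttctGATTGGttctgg
H2-Eb1 (chr17:34305767-34305818, plus strand): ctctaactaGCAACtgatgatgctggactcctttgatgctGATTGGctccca
H2-Eb2 (chr17:34325534-34325585, plus strand): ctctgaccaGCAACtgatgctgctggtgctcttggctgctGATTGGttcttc
H2-Oa (chr17:34092295-34092346, plus strand): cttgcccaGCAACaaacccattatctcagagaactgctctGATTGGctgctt
H2-Ob (chr17:34238807-34238858, plus strand): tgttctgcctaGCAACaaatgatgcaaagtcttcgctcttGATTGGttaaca
H2-DMb1 (chr17:34153089-34153140, plus strand): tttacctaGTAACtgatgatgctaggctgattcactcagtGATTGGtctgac

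Among class 1 genes, a kappa-B like motif, GGGNNTTCC, lay in 6 of the 23 windows (2 of the 8 class 2 windows, 6.58% of genes). The interferon response element was sought as GAAA, 2 bases of any kind and GAAA, and lay in 2 class 1 and 0 class 2 windows (3.99% of genes). Its shorter form, AANNGAAA, which the longer one contains, lay in 15 class 1 and 4 class 2 windows (26.7% of genes), and GNAACNG in 9 and 4 (45.7% of genes). H2-D1, H2-Q4 and H2-Q10 are shown because, in the livers below, H2-D1 and H2-Q4 were called higher and H2-Q10 lower. These genes were picked with their values known, and each also holds AANNGAAA on the opposite strand, which is not marked. Their stretches begin 175 to 183 and end 38 to 40 bases before the RefSeq start, on the plus strand. The GENCODE M21 annotation starts H2-D1 at 35262730, before its stretch. Capitals mark the kappa-B like motif and the Y box, which here reads on the opposite strand, or the bases of H2-Q10 that align with them.
H2-D1 (chr17:35262916-35263056): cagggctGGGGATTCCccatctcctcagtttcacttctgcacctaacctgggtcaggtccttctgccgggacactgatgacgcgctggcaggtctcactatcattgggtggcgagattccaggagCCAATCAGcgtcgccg
H2-Q4 (chr17:35379442-35379577): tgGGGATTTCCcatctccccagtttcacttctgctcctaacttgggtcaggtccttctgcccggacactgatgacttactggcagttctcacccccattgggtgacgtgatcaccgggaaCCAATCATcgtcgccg
H2-Q10 (chr17:35469906-35470050): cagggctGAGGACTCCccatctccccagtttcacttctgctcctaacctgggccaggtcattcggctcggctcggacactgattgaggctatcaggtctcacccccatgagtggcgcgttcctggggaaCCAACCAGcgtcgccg
Aligned with H2-D1, the H2-Q10 stretch kept 118 of 141 bases (83.7%) and that of H2-Q4 kept 117 (83.0%). Counting from the 5′ end of each motif as printed for H2-D1, H2-Q10 differed by G2A and T6C in the kappa-B like motif and by T5C in the Y box. H2-Q4 differed by G8T in the Y box and held a kappa-B like match 1 base downstream. Elsewhere in class 1, H2-K1 and H2-Q7 hold both the kappa-B like motif and the full Y box and were not called, at -0.35 and 0.38. H2-M3, called higher at 1.31, holds neither. A link between these letters and the changes was not tested. These matches describe the letters of the reference strain, and binding was not measured.

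Each library held between 16137093 and 18110223 reads on genes, and members took 0.522% to 0.557% of them in WT and 0.85% to 0.882% in Vps15LKO livers. Values below are normalized counts, that is, reads divided by 1 size factor per library. Pik3r4, the gene of Vps15, stood at 508, 573 and 459.7 in WT and 341, 362 and 355 in Vps15LKO livers, which differed by -0.54 on the log2 scale (limma, adjusted p = 0.00207, n = 3 per genotype) and by 0.19 with total-read scaling. The study describes the recombined locus, in fibroblasts, as lacking exon 2, so transcripts with the other exons can still be counted, and a count over the whole gene checks the labels only weakly. Genes entered the test when 3 or more livers reached 20 normalized counts, as 15430 did. Calls required an adjusted p (limma with trend, Benjamini-Hochberg over all tested genes) under 0.05 and a fold of at least 1.2. By this rule 33.5% of tested genes were called higher and 33.0% lower in Vps15LKO, and the genotypes did not overlap in 73.2%. The deposited scaling placed the median gene at -0.02. Scaling every library to the same total of reads placed it at 0.70 and called 66.7% of genes higher and 11.1% lower. Changes of members are to be read against that shift.

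Of the 48 members, 30 were tested, 23 of them were called higher in Vps15LKO livers, 2 lower and 5 neither, against 33.5% higher and 33.0% lower among all tested genes. The genotypes did not overlap in 26 of the 30, against 73.2% of all genes. All 8 tested class 2 genes were called higher, at a median log2 fold change of 2.27. Among 18 tested class 1 genes 13 were called higher, 1 lower and 4 neither, at a median of 1.27. The 13 protein-coding genes among these had a median of 0.81, with 8 called higher, and the 5 pseudogenes a median of 2.22, all called higher, while all 8 tested class 2 genes are protein-coding. With total-read scaling the medians were 2.96 for class 2 and 1.99 for class 1, and 26 members were called higher and 2 lower (66.7% and 11.1% of all genes). The filter bears on these counts: H2-Bl, H2-M2, H2-Oa and H2-DMb2 reached 20 in no WT liver and so entered through the Vps15LKO livers, where they had to be higher. The 5 class 2 genes with at least 20 in every liver were likewise all called higher.

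The class 2 chains H2-Aa, H2-Ab1 and H2-Eb1, which form the presenting molecules themselves, rose together and were 5.53 to 5.89 times as abundant in Vps15LKO as in WT livers. H2-Aa, the alpha chain of H2-A (chr17:34282744-34287823), stood at 652, 793 and 468 in WT and 3874, 3937 and 3459 in Vps15LKO livers. Its partner H2-Ab1 (chr17:34257689-34269419) was at 666, 837 and 448 in WT and 3598, 3548 and 3631 in Vps15LKO livers. H2-Eb1, the beta chain of H2-E (chr17:34305867-34316674), was at 345, 475 and 245 in WT and 1981, 1939 and 2046 in Vps15LKO livers. For all 3 genes the WT livers were spread widely, with replicate 2 highest and replicate 3 lowest, the Vps15LKO livers lay close together, and no WT liver came near them. The log2 fold changes were 2.59 ± 0.18 (SE), 2.51 ± 0.20 and 2.53 ± 0.20, with adjusted p of 6.55e-06, 1.27e-05 and 1.45e-05 (limma, n = 3 per genotype). Per kb of exon, the 3 chains reached 989, 1399 and 1023 normalized counts in Vps15LKO livers, from 168, 253 and 183 in WT. The alpha chain of H2-E, H2-Ea-ps, is a pseudogene in the reference strain and had no read in any of the 6 livers.

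H2-DM and H2-O, the class 2 molecules that edit peptide loading, were scarcer. H2-DMa stood at 175, 164 and 127 in WT and 563, 532 and 572 in Vps15LKO livers, and rose by 1.85 ± 0.13 (log2, SE, adjusted p = 9.10e-06). Of the beta chains, H2-DMb1 went from 70.3, 88.7 and 53.9 to 353, 412 and 303, 2.33 ± 0.20 higher (adjusted p = 1.89e-05). H2-DMb2 went from 15.9, 18.7 and 16.2 to 62.6, 66.4 and 81.3, or 1.98 ± 0.21 (adjusted p = 6.22e-05). The genotypes stood well apart for each DM chain. H2-DMb1 and H2-DMb2 share 11.3% and 10.3% of their 100-base stretches, so part of their reads cannot be assigned to either with certainty.

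H2-Oa was at 15.9, 2.5 and 9.44 in WT and 40.5, 29.98 and 45.97 in Vps15LKO livers (2.20 ± 0.54, adjusted p = 0.00639), and WT replicate 2 was far below the other two. Without that liver the log2 fold change of H2-Oa was 1.56, still called higher. H2-Ob was at 13.3, 21.2 and 18.9 and 39.7, 29.98 and 37.5 (0.98 ± 0.27, adjusted p = 0.0106), the smallest rise among the class 2 genes tested. Both changed without overlap, and both lost their call under quantile normalization, at 1.05 and 0.11. H2-Eb2, a second E beta chain, missed the filter with 1.33, 0 and 0 in WT and 16.04, 12.2 and 15.6 in Vps15LKO livers. It had 1 read in the WT livers together and was above WT in each Vps15LKO liver. No read fell on the pseudogenes H2-Pa and H2-Pb.

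Cd74 and Ciita, which lie outside the complex, moved as the class 2 chains did. Cd74 encodes the invariant chain that guides class 2 molecules to the endosome, and stood at 2466, 2944 and 1916 in WT and 12253, 12246 and 12017 in Vps15LKO livers, 2.34 ± 0.16 higher on the log2 scale (adjusted p = 5.87e-06). At 7250 normalized counts per kb it stood above each class 2 chain in Vps15LKO livers. Ciita, the coactivator of class 2 promoters (chr16:10480059-10528418), was at 38.5, 51.2 and 31 in WT and 215, 214 and 219 in Vps15LKO livers, or 2.43 ± 0.19 (adjusted p = 1.31e-05). The 3 Vps15LKO livers were nearly equal in Ciita, and the genotypes did not overlap in either gene.

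**Figure D1:**
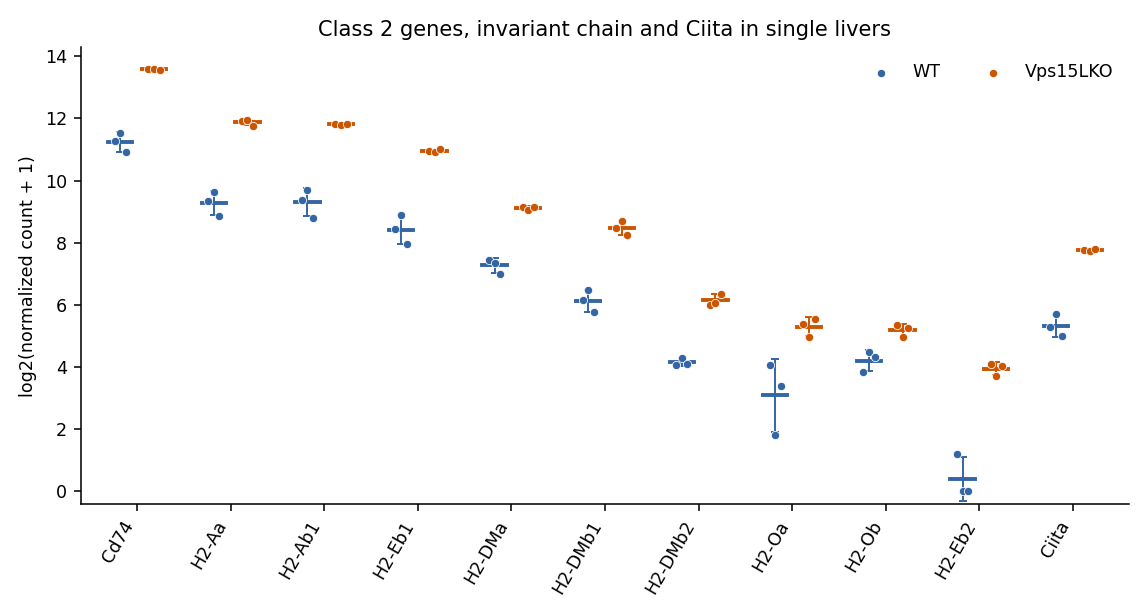
Class 2 genes, Cd74 and Ciita by gene (x axis) as log2(normalized count + 1) (y axis) in each of the 3 WT (blue) and 3 Vps15LKO (orange) livers. Points are livers, and bars are the mean and SD of the log2 values. The 2 genotypes are apart for every gene shown, and WT replicates, drawn left to right in the order 1 to 3, are more spread than Vps15LKO replicates for H2-Aa, H2-Ab1, H2-Eb1, Cd74 and Ciita.

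Ratios of reads within each library do not depend on the scaling between libraries, and H2-Aa, H2-Eb1 and Ciita kept nearly fixed proportions to H2-Ab1. For every 100 reads of H2-Ab1 there were 98.0, 94.8 and 104.5 of H2-Aa in WT and 107.7, 111.0 and 95.2 in Vps15LKO livers. H2-Eb1 gave 51.8 to 56.7 per 100 in WT and 54.7 to 56.3 in Vps15LKO livers, and Ciita 5.78 to 6.93 and 5.99 to 6.04. The genotypes overlapped in these 3 ratios, so no difference in rise between the chains and their regulator was seen, though none was tested. Cd74 gave 370.5, 351.8 and 428.0 reads per 100 of H2-Ab1 in WT and 340.6, 345.2 and 331.0 in Vps15LKO livers, slightly lower without overlap. H2-DMa gave 26.3, 19.6 and 28.3 in WT and 15.6, 15.0 and 15.8 in Vps15LKO livers, so it rose less than the presenting chains.

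The abundant class 1 genes did not move as a block. H2-D1, a classical heavy chain (chr17:35262730-35267499), stood at 10328, 10083 and 8943 in WT and 17624, 17272 and 16423 in Vps15LKO livers, and rose by 0.81 ± 0.13 (log2, SE, adjusted p = 6.36e-04). H2-K1, the other classical heavy chain tested (chr17:33996017-34000347), was at 23362, 21279.6 and 20061 in WT and 17178, 17240.1 and 16152 in Vps15LKO livers. No liver of one genotype overlapped the other in either gene, with H2-D1 higher and H2-K1 lower in Vps15LKO under the deposited scaling. The difference in H2-K1 was -0.35 ± 0.15 and was not called (adjusted p = 0.0623, 95% interval -0.69 to -0.01), while limma without trend and DESeq2 called it lower. Its sign turned with the scaling, and it was called higher with total-read scaling (0.37, adjusted p = 0.016) and with quantile normalization (0.84, adjusted p = 4.37e-04). H2-D1 was called higher under all 3 scalings, at 1.53 and 1.87 under the other two.

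The balance of the 2 heavy chains within a library is free of scaling. For every 100 reads on H2-K1 there were 44.2, 47.4 and 44.6 on H2-D1 in WT livers and 102.6, 100.2 and 101.7 in Vps15LKO livers. The WT livers held under 1 H2-D1 read for every 2 of H2-K1 and the Vps15LKO livers about as many of each, a 2.24-fold change in the ratio with a spread between livers far smaller than the change. The pair share few 100-base stretches with other genes, 0.957% for H2-K1 and 3.59% for H2-D1, by the reference strain.

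H2-Q10, a secreted class 1 heavy chain known as a product of the liver (chr17:35470089-35474563), was the exception in its class. It stood at 38166, 35349 and 32711 in WT and 14012, 18599 and 11968 in Vps15LKO livers, so the lowest WT liver held more than the highest Vps15LKO liver. The log2 fold change was -1.27 ± 0.20 (adjusted p = 5.74e-04), the only class 1 gene called lower, and it was still called lower with total-read scaling, at -0.55. Quantile normalization placed it at -0.01, with no call. Reads on H2-Q10 per 100 on H2-K1 were 163.4, 166.1 and 163.1 in WT and 81.6, 107.9 and 74.1 in Vps15LKO livers. In WT livers it was the most read class 1 gene, with 47.7% ± 0.193 (SD, n = 3) of class 1 reads, and in Vps15LKO livers its share was 23.3% ± 3.66, behind H2-D1 and H2-K1 in replicates 1 and 3 and ahead of both in replicate 2 (27.4%). Per kb of exon, the order in WT livers was H2-Q10 (8144 normalized counts), H2-K1 (7341) and H2-D1 (3794), and in Vps15LKO livers H2-D1 (6633), H2-K1 (5738) and H2-Q10 (3418). Hepatocyte transcripts fell in the same livers: 11 of 12 hepatocyte markers were called lower, against 33.0% of all tested genes, at a median of -2.11. With total-read scaling 11 were called lower as well, against 11.1% of all genes, at a median of -1.38. Their normalized counts had a summed level of 3073640 to 3592430 in WT and 842293 to 1283840 in Vps15LKO livers. The part of those markers in the fall of H2-Q10 was not tested.

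B2m, the light chain that every class 1 heavy chain needs (chr2:122147686-122153083), had the highest normalized count of all members in both genotypes. It was at 45544, 45903 and 40514 in WT and 31449, 33407 and 31296 in Vps15LKO livers, lower without overlap, yet the difference of -0.46 ± 0.19 was not called (adjusted p = 0.0638, 95% interval -0.89 to -0.02). As with H2-K1, its sign depended on the scaling, at 0.27 with total-read scaling, which was not called, and 0.87 with quantile normalization, which was called higher (adjusted p = 5.97e-04). Limma without trend, limma voom, edgeR and DESeq2 called it lower. Within a library, B2m gave 57.0, 62.2 and 58.9 reads per 100 class 1 reads in WT and 49.6, 49.3 and 53.4 in Vps15LKO livers.

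The less abundant genes of the Q and T groups mostly rose. H2-T22, whose product is a ligand of some gamma delta T cells, stood at 1757, 1746 and 1705 in WT and 4053, 4154 and 3988 in Vps15LKO livers (1.23 ± 0.08, adjusted p = 6.37e-06). H2-T23, which encodes Qa-1, a ligand of the CD94-NKG2 receptors of natural killer cells, was at 3135, 2783 and 2598 and 2734, 3088 and 2584. Its genotypes overlapped and it was not called, with a log2 fold change of -0.02 and a 95% interval of -0.27 to 0.24, but it was called higher with total-read scaling (0.71, adjusted p = 6.78e-05) and with quantile normalization (0.51, adjusted p = 8.58e-04). The means of Vps15LKO livers were 2.34 times those of WT livers for H2-T22 and 0.987 times for H2-T23. H2-T22 shares 29.4% of its exon bases with an antisense gene and 31.5% of its 100-base stretches with other genes, so its value is less certain.

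H2-Q4 rose from 603, 665 and 605 to 2063, 1774 and 2080.1 (1.66 ± 0.10, adjusted p = 3.21e-06) and H2-Q6 from 477, 487 and 359.9 to 1264, 940.0 and 1290.1 (1.40 ± 0.16, adjusted p = 9.47e-05). H2-Q7, a gene of the membrane-anchored Qa-2 antigen, was at 1262, 743 and 547 in WT and 1013, 1009.7 and 1105 in Vps15LKO livers. WT replicate 1 lay above the Vps15LKO livers and the other WT livers below them, and H2-Q7 was not called (0.38, 95% interval -0.21 to 0.96). It was called higher without WT replicate 1 (0.71), with total-read scaling (1.10, adjusted p = 0.00168) and with quantile normalization (0.59, adjusted p = 0.0451). H2-Q1 was at 316, 67.5 and 181 in WT and 1311, 1541 and 944 in Vps15LKO livers (2.97 ± 0.48, adjusted p = 5.93e-04), higher in each despite a wide spread among WT livers. Its log2 fold change was 3.48 without WT replicate 1 and 2.37 without WT replicate 2, and it was called higher in both cases.

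In H2-Q2 the WT livers disagreed. They held 26.5, 197 and 745 normalized counts, while the Vps15LKO livers held 205, 239 and 214, inside the WT range. Its log2 fold change of 0.46 had a 95% interval from -1.73 to 2.66 and was not called, and it was -0.81 without WT replicate 1 and 1.57 without WT replicate 3. WT replicate 1, lowest in H2-Q2, was the highest WT liver in H2-Q1, H2-Q7, H2-T10 and H2-K2. Shared sequence among the Q genes, 5.09% of 100-base stretches in H2-Q2 and 8.05% in H2-Q1, leaves the assignment of some reads between them uncertain. A haplotype unlike the reference strain could also change how reads of these polymorphic genes were assigned, and this was not tested.

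The largest rise with WT counts well above 0 was that of H2-T-ps, a pseudogene of the T group, at 47.7, 54.96 and 44.5 in WT and 906, 797 and 760.3 in Vps15LKO livers. The log2 fold change was 4.04 ± 0.13 (adjusted p = 2.39e-07), a 16.7-fold difference of means. Only H2-M2 had a larger fitted value, 4.36 ± 0.71 (adjusted p = 6.48e-04), from 0, 4.996 and 0 in WT to 28.3, 44.6 and 38.2 in Vps15LKO livers. With 4 reads in WT replicate 2 and 0 in the others, that value depends on the pseudocount and ranged from 2.02 to 6.62 over the alternatives (5.22 without WT replicate 2). H2-M3, which presents formylated peptides of bacteria and mitochondria, went from 37.1, 32.5 and 31 to 94.7, 85.9 and 73.6 (1.31 ± 0.18, adjusted p = 2.82e-04).

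The other class 1 genes tested were H2-T10, H2-Bl, H2-Q5, H2-K2 and H2-T24, all called higher. Their means in Vps15LKO livers were 4.28, 5.84, 3.59, 1.99 and 1.63 times those in WT livers. The first 3 are annotated as polymorphic pseudogenes and H2-K2 as a transcribed pseudogene. H2-T24 was at 54.4, 69.9 and 95.7 and 92.4, 116 and 149.9, and its genotypes overlapped. Its call was lost without WT replicate 1 or 2 or Vps15LKO replicate 2 or 3, at log2 fold changes of 0.51 to 0.71. Untested class 1 members were near 0: H2-T3 held 6.63, 0 and 8.09 in WT and 0, 0.81 and 0 in Vps15LKO livers, H2-Q3, H2-M5 and H2-M6-ps held at most 2.3 in any liver, and the other 10, all of the M group, had no read. Among them are the H2-M10 genes, known from the vomeronasal organ.

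**Figure D2:**
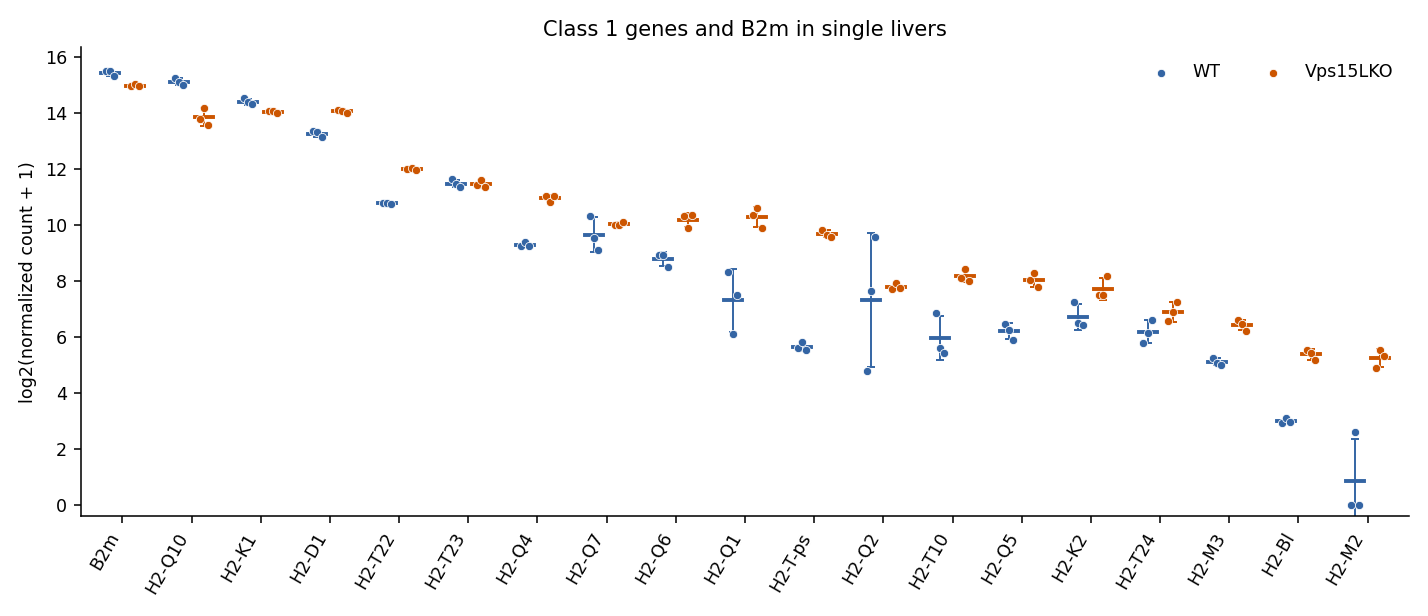
B2m and the 18 tested class 1 genes, ordered by abundance (x axis), as log2(normalized count + 1) (y axis) in each of the 3 WT (blue) and 3 Vps15LKO (orange) livers. Points are livers, and bars are the mean and SD of the log2 values. Vps15LKO livers lie below WT for B2m, H2-Q10 and H2-K1 under the deposited scaling and above WT without overlap for 12 genes (H2-T24, the 13th called higher, overlaps), while H2-Q2 has WT livers on both sides of the Vps15LKO livers.

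The classes could be set against each other within each library. Class 2 genes took 2.45, 3.25 and 2.01 reads per 100 class 1 reads in WT livers and 16.6, 15.5 and 17.4 in Vps15LKO livers. The lowest Vps15LKO liver was far above the highest WT liver, and the means, 2.57 ± 0.629 (SD, n = 3) and 16.5 ± 0.955, differed 6.42-fold. With H2-Aa, H2-Ab1 and H2-Eb1 over H2-K1 and H2-D1 alone the means were 5.22 and 27.5, and per kb of exon 3.24 and 18.1. As a share of all reads on genes, class 1 went from 0.327% to 0.461% and class 2 from 0.00842% to 0.0761% on average, so class 1 remained the larger class in both genotypes. In bulk tissue, more cells of a type and more RNA per cell cannot be told apart.

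**Figure D3:**
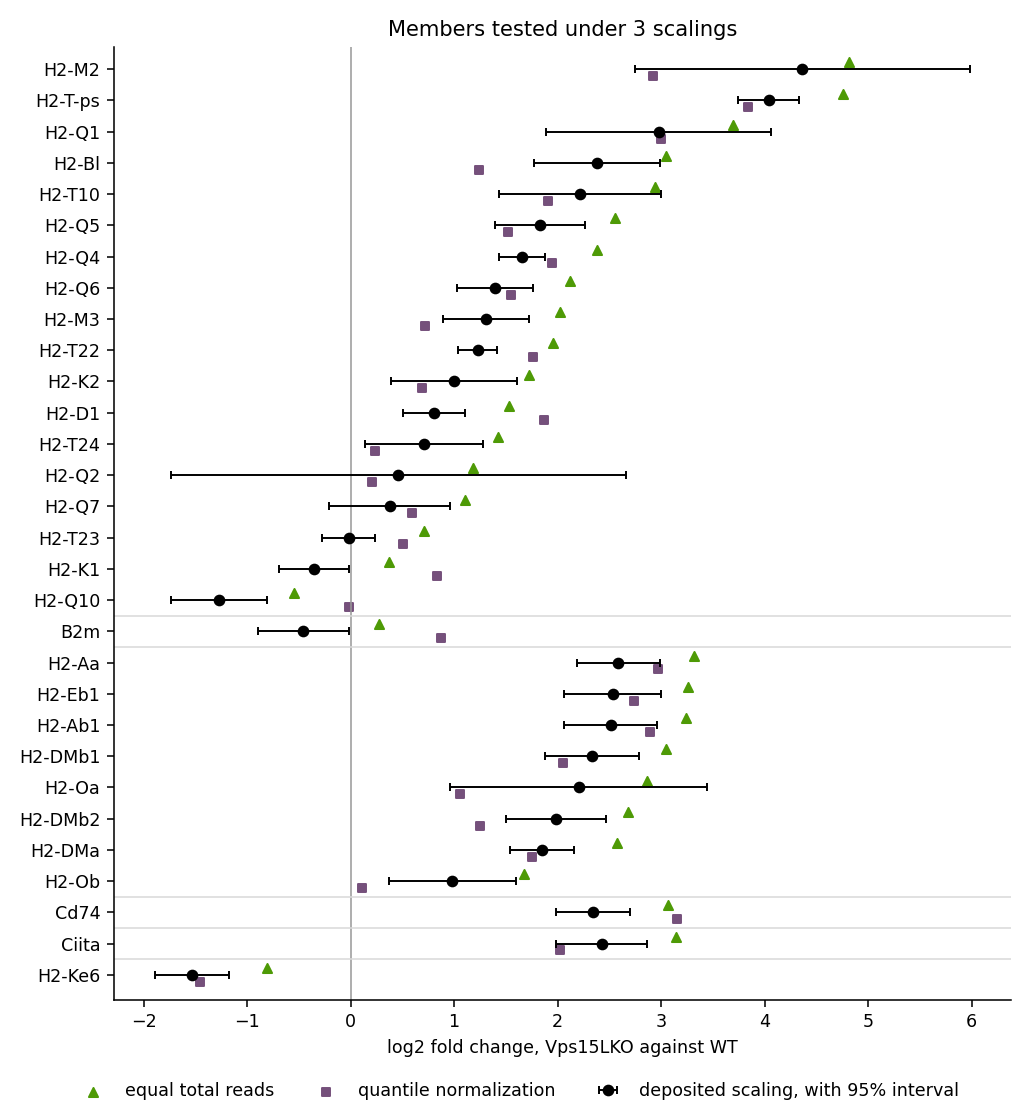
Log2 fold change, Vps15LKO against WT (x axis), of the 30 tested members (y axis, grouped as class 1, B2m, class 2, Cd74, Ciita and H2-Ke6). Circles with 95% intervals are the limma fit on the deposited scaling, triangles use equal total reads and squares quantile normalization. Class 2 values lie between 0.98 and 2.59 on the deposited scaling and class 1 values between -1.27 and 4.36, and H2-K1, B2m and H2-T23 cross 0 between scalings.

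Of 14 tested genes that load class 1 peptides, 6 were called higher and 4 lower, at a median of 0.27, shares near the 33.5% and 33.0% of all tested genes. Tapbp, the tapasin that holds class 1 at the peptide transporter, rose by 1.03, Psmb8 and Psmb9, subunits of the immunoproteasome, by 0.71 and 0.50, and the transporter subunit Tap1 by 0.59. The 4 called lower, Calr, Erap1, Canx and Pdia3, at -0.98, -0.61, -0.55 and -0.39, encode chaperones and a peptidase of the endoplasmic reticulum. With total-read scaling 11 of the 14 were called higher and 0 lower, against 66.7% and 11.1% of all genes. Nlrc5, the coactivator of class 1 promoters, was at 365, 365 and 286 in WT and 501, 396 and 391 in Vps15LKO livers and was not called (0.34, adjusted p = 0.0601).

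Of 12 tested genes of class 2 processing and control, 7 were called higher and 2 lower, at a median of 1.03, against 33.5% and 33.0% of all tested genes. Ctss, the cathepsin that trims the invariant chain, stood at 455, 488 and 518 in WT and 2989, 2749 and 2832 in Vps15LKO livers (2.55, adjusted p = 3.28e-07). Ifi30, the lysosomal thiol reductase of antigen processing, rose by 1.75. Rfx5, Rfxap and Rfxank bind the X box, and of these Rfx5 and Rfxank were not called, at 0.17 and 0.09, and Rfxap was called lower, at -0.54, a sign that turned with total-read scaling (0.19). Of these factors and Ciita, Ciita alone was called higher under the deposited scaling. With total-read scaling Rfx5 and Rfxank stood at 0.89 and 0.81, and 10 of the 12 genes of the list were called higher and 1 lower, against 66.7% and 11.1% of all genes.

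Interferons induce both classes. Ifng itself was near 0, at 2.65, 0 and 1.35 in WT and 0, 6.48 and 2.83 in Vps15LKO livers, and was not tested. Of 20 tested genes of the interferon-gamma response, 12 were called higher and 1, Iigp1, lower, at a median of 0.71, against 33.5% and 33.0% of all tested genes. With total-read scaling 18 were called higher and 1 lower, at a median of 1.43, against 66.7% and 11.1% of all genes and 0.70 for the median gene. Cxcl10, a chemokine, rose by 5.20, the transcription factor Irf8 by 2.24 and the receptor chain Ifngr1 by 2.01. Irf1, through which interferon-gamma acts on Ciita, was not called, at 0.30 (adjusted p = 0.0719). Of 19 genes of the type 1 interferon response, 16 were called higher and 0 lower, at a median of 1.25, among them Rsad2 at 4.78 and Oasl1 at 4.42. The summed level of that list was 8278 to 10498 in WT and 28950.4 to 32146 in Vps15LKO livers. Its part in the class 1 or class 2 changes was not tested.

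Markers of the cells that carry class 2 were higher in the same livers. Ptprc, which encodes the leukocyte antigen CD45, stood at 110.1, 195 and 210.3 in WT and 792, 826 and 683 in Vps15LKO livers (2.20, adjusted p = 5.25e-05). The 12 dendritic cell markers had a summed level of 354 to 403 in WT and 1292 to 1495 in Vps15LKO livers. All 12 were called higher, but 7 of them reached 20 in no WT liver, so they entered the test through the Vps15LKO livers and had to be higher. Of all tested genes 33.5% were called higher and 33.0% lower. Of 20 macrophage and monocyte markers 18 were called higher and 0 lower, with a sum of 11359 to 13132 against 47057 to 50131, and 2 of the 18, Trem2 and Gpnmb, reached 20 in no WT liver. Of the markers of resident Kupffer cells among them, Clec4f and Timd4 were not called, at 0.40 and -0.62, and Vsig4, Cd5l and Marco were called higher, at 0.99, 1.39 and 1.08. Defining B cell markers were low. Ms4a1 and Pax5 stood below 20 in every liver, Cd79a was at -0.65 (adjusted p = 0.16), and the 3 of 5 tested B cell markers called higher were Cd22, Cd79b and Ighm. The summed B cell list was 313 to 486 in WT and 690.4 to 774 in Vps15LKO livers.

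The summed level of T and natural killer cell markers was 167 to 191 in WT and 605 to 702 in Vps15LKO livers. Of the 10 tested 9 were called higher and 0 lower, against 33.5% and 33.0% of all tested genes. Of these 9, 5 reached 20 in no WT liver and had to be higher. Of 12 endothelial markers 5 were called higher and 6 lower, against 33.5% and 33.0% of all tested genes. Their summed levels were 10706 to 12011 in WT and 9004 to 10851 in Vps15LKO livers. With total-read scaling 8 of the 12 endothelial markers were called higher and 1 lower, against 66.7% and 11.1% of all genes. The cholangiocyte markers had sums of 1289 to 1468 and 13302 to 24941, of which Spp1 alone had means of 551 in WT and 14767 in Vps15LKO livers. All 10 were called higher, against 33.5% of all tested genes. Among them Cldn4, Cldn7 and Cftr reached 20 in no WT liver and had to be higher. How much each of these cell types contributed to the member transcripts was not tested.

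Against single leukocyte genes, the class 2 chains were neither fixed nor uniform. H2-Ab1 gave 604.8, 429.5 and 212.8 reads per 100 of Ptprc in WT and 454.3, 429.6 and 532.0 in Vps15LKO livers, and the genotypes overlapped. Per 100 reads of Adgre1, which encodes the macrophage antigen F4/80, it gave 184.6, 196.5 and 104.1 in WT and 308.3, 282.8 and 383.4 in Vps15LKO livers, 2.01 times as many. Per 100 reads of Itgax, which encodes CD11c, it gave 2953, 4467 and 3018 in WT and 1035, 1070.4 and 869 in Vps15LKO livers. Itgax stood at only 22.5, 18.7 and 14.8 normalized counts in WT livers, so the WT ratios to it rest on few reads. The ratio of H2-Ab1 to Ptprc thus changed 1.14-fold, inside the spread of the WT livers. H2-Ab1 rose more than Adgre1 and less than Itgax.

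**Figure D4:**
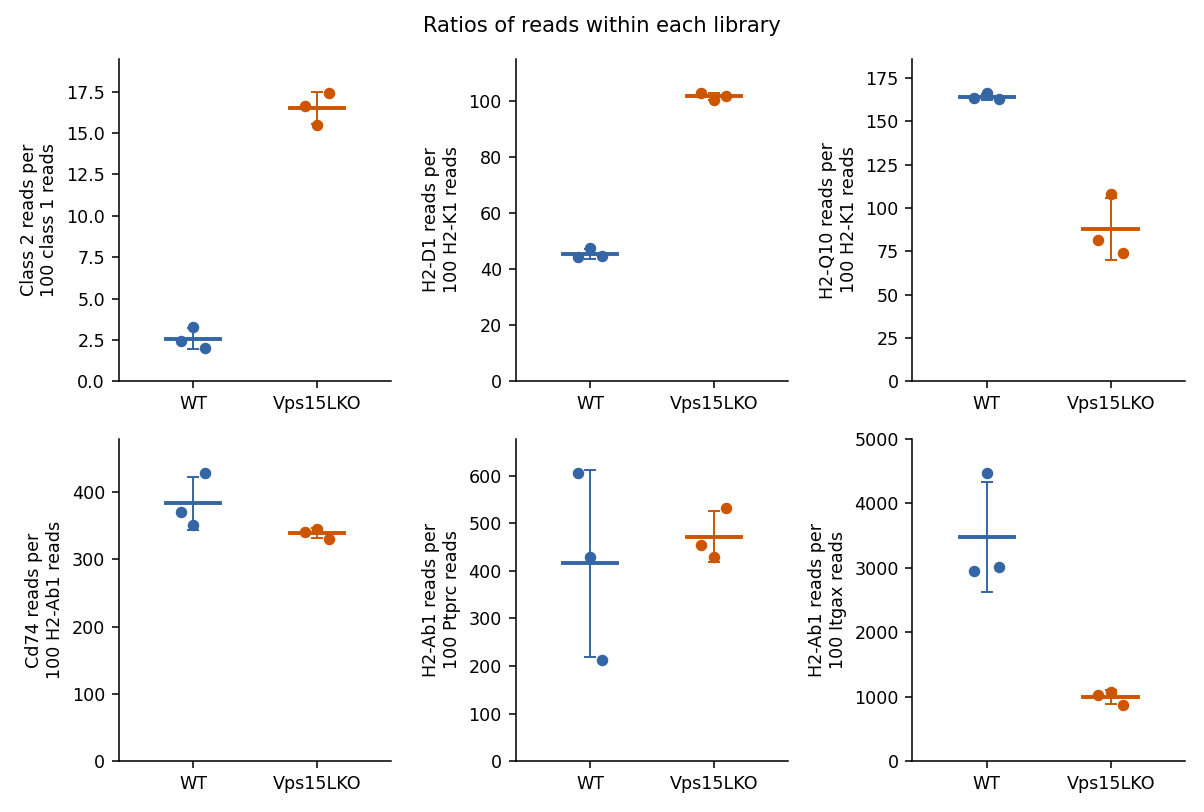
Reads on 1 gene or class per 100 reads on another within the same library (y axes) in the 3 WT (blue) and 3 Vps15LKO (orange) livers (x axes). Points are livers, and bars the mean and SD. The class 2 to class 1 ratio and the H2-D1 to H2-K1 ratio are higher in every Vps15LKO liver, H2-Q10 to H2-K1 and H2-Ab1 to Itgax lower in every one, and H2-Ab1 to Ptprc overlaps.

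H2-Ke6 lies in the complex but encodes a hydroxysteroid dehydrogenase, Hsd17b8, and presents no peptide (chr17:34026033-34028060). It stood at 1266, 1007 and 900.5 in WT and 355, 425 and 310.5 in Vps15LKO livers, differing by -1.54 ± 0.16 (log2, SE, adjusted p = 4.84e-05), called lower under all 3 scalings. It shares 86.4% of its exon bases with the readthrough transcript gene Gm20427, so its count is uncertain. No source used here says whether reads were counted by strand, and exon overlap with a gene on the opposite strand also touched H2-T10 (27.1%), H2-Oa (22.8%), H2-Q4 (19.1%) and H2-DMa (10.4%). By 100-base stretches of the annotated transcripts, 10 members shared over 10% with another gene and 26, including H2-Aa, H2-Ab1, H2-Eb1, Cd74 and B2m, shared none.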

How the data were processed

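Livers of 3 WT and 3 Vps15LKO mice were grouped by the genotype in the labels. The authors used SOAPnuke to filter the reads, HISAT2 to align them to GRCm38, featureCounts (Subread) to count them and DESeq2 to normalize. Tool versions and the strand and multi-mapping rules are not given in the sources used here. As deposited, the signal of a gene is its reads over 1 size factor per library. With the smallest value above 0 taken as 1 read, all values above 0 (100%) lay within 0.01 reads of a whole number, which gave the reads back. Because the values are not counts as deposited, log2(normalized count + 1) was compared with limma 3.58.1 (trend, R 4.3.3) over 15430 genes with at least 20 in 3 or more livers. Benjamini-Hochberg adjustment covered all of them, and calls needed an adjusted p under 0.05 and a 1.2-fold change. On simulated data with 200 changed genes for this comparison (15221 genes tested), 99% were recovered. Symbols and coordinates came from GENCODE M21, which matched 55227 of 56305 genes.

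Members and the 12 gene lists were chosen with earlier results of these data known. Values in every liver are given for H2-K1, H2-D1, B2m, class 2 genes, Cd74, Ciita, the most abundant Q, T and M genes, and the largest rise and fall. Other members and list genes given by value (H2-Q2, H2-Q5, H2-T24, H2-T3, H2-T10, H2-K2, H2-Bl, H2-M3, H2-Eb2, Calr and Rsad2 among them) were picked with their values known. Alternatives changed the scaling, pseudocount, filter, test (on recovered reads: limma voom, edgeR 4.0.16 and DESeq2 1.42.0), fold threshold, block and livers. Ratios within a library are descriptions without a test. Stretches of 100 bases were compared between annotated transcripts as sequence identity, and promoters were aligned with Biopython 1.88. Reads are not independent molecules, so depth errors are covered only by the spread between mice.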

Additional observations from a re-analysis of the deposited data

How the results depend on the processing

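Of the 30 members tested, 21 kept their direction and their side of the threshold in each of the 20 alternatives in which they were tested, and 4 (H2-K1, B2m, H2-Q2 and H2-T23, all uncalled) changed sign in at least 1. The median log2 fold change of class 1 members was 1.99 with total-read scaling, 1.39 with upper-quartile scaling, 1.38 with quantile normalization, 0.92 when genes above 0 in 1 liver were kept and 1.11 with 20 in every liver. That of class 2 members was 2.96 with total-read scaling, 1.91 with quantile normalization, 1.99 with a pseudocount of 10 and 2.51 with 20 in every liver, a filter that left 5 class 2 members, all called higher. Members called lower numbered 1 with quantile normalization and 4 with limma without trend and with DESeq2, where H2-K1 and B2m joined. Class 2 reads per 100 class 1 reads were 5.22 in WT and 27.5 in Vps15LKO livers with only H2-Aa, H2-Ab1, H2-Eb1, H2-K1 and H2-D1, and 3.24 and 18.1 per kb of exon.

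H2-K1 was at 0.37 with total-read scaling and 0.84 with quantile normalization, both called higher, and B2m at 0.27 and 0.87, the second called higher. H2-Q7 was called higher under both, at 1.10 and 0.59. H2-T23 was also called higher under both, at 0.71 and 0.51, and it was at 0.0267 with TMM, 0.0261 with edgeR and 0.0284 with limma voom, at 0.11 with upper-quartile scaling, and between -0.0905 and 0.0555 when each liver was left out. H2-Q2 was at -0.52 with edgeR and -0.56 with DESeq2, and between -0.81 and 1.57 when each liver was left out. H2-Q10, H2-T24, H2-Oa and H2-Ob lost their call with quantile normalization, which ranks genes within a library. H2-T24 also lost it without WT replicate 1 or 2 or Vps15LKO replicate 2 or 3, at 0.51 to 0.71. The causes were not tested.

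Same-numbered livers did not deviate together (correlations of -0.01, -0.01 and 0.05), so the numbers were not taken to pair them. With the replicate block, 23 members were called higher and 2 lower, as without it. Of the 18 untested members, 13 had no read in any liver and 5 had reads but too few to be tested.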

Other observations

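WT replicate 1 differed from the other WT livers in several class 1 genes. In the WT livers in the order 1 to 3, H2-T10 stood at 114, 47.5 and 41.8 normalized counts, H2-K2 at 149.8, 88.7 and 83.6, H2-Q7 at 1262, 743 and 547, and H2-Q2 at 26.5, 197 and 745. In the Vps15LKO livers H2-T10 stood at 273, 341 and 255, H2-K2 at 177, 178 and 286, and H2-Q5 at 261, 308 and 216. H2-Bl was at 6.63, 7.49 and 6.74 in WT and 45.1, 42.1 and 34.7 in Vps15LKO livers.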
